A study of Mus musculus with 3 samples.

Results

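Epithelial cells copying their DNA were picked out of a culture of preneoplastic mouse esophageal cells by the RNA of 9 replication genes. They numbered 224, which was 2.09% (exact 95% binomial interval 1.83 to 2.38) of the 10698 epithelial cells that could be chosen, out of 18116 cell barcodes in all. A cell could be chosen if it had at least 500 detected genes, at least 1000 UMIs (unique molecular identifiers, each marking 1 captured RNA molecule) and at most 20% mitochondrial UMIs. It also had to have at most 1 UMI over the mesenchymal genes Vim, Col5a1, Grem1, Aebp1 and Ccn5, and at most 1 over the mitosis genes Nusap1, Ube2c, Ccna2, Birc5, Cdc20, Top2a, Cdk1 and Cenpf. From these eligible cells the 10% with the largest share of UMIs from Mcm3, Mcm5, Mcm6, Pcna, Rrm2, Tyms, Hells, Clspn and Gins2 were kept if they had at least 3 such UMIs. The 224 are called replicating cells below, and the other 10474 eligible cells the rest.

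The culture, called PC, descends from esophageal organoids of Trp53 floxed/floxed mice, in which Trp53, the gene of the tumour suppressor p53, was deleted by Cre from the adenovirus Ad-Cre-EGFP. Cdkn2a, the locus of p16 and p19Arf, was then knocked out with CRISPR/Cas9. The cells expressed Cas9 constitutively, were grown as a dissociated culture with serum, received a library of genetic barcodes by transfection, were expanded for 3 passages and were sorted for live cells with red fluorescence. Gene expression, barcode and scar libraries were made from the 1 sample, and the deposited matrix was treated as 1 pooled sample. Every cell compared here therefore comes from the same culture and treatment, and there is no untreated control. Whether edited alleles differ between cells was not tested. PCN, the derivative that also lacks Notch1, was not analysed here.

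A cell licenses its replication origins in G1, when ORC, Cdc6 and Cdt1 load the ring of Mcm2 to Mcm7 onto DNA. In S phase Cdc45 and GINS turn that ring into the moving helicase, primase and the polymerases copy both strands, and PCNA holds the polymerases on the template. Nucleotide synthesis, chromatin assembly and new histones are supplied at the same time, and E2F factors, held back by Rb family proteins until G1 ends, switch on many of these genes. In stratified squamous epithelium such as the esophagus, the dividing cells normally lie in the basal layer, and cells that leave it stop dividing as they differentiate.

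The genes that chose the cells are given here as a description. Hells, a chromatin remodeller, was detected in 142 of the 224 cells and Pcna, the sliding clamp, in 134. Tyms, which makes thymidylate, was detected in 96 cells, the GINS subunit Gins2 in 65, and the helicase subunit Mcm6 in 60. Mcm3 and the ribonucleotide reductase subunit Rrm2 were each detected in 56 cells, the checkpoint adaptor Clspn in 29 and Mcm5 in 26. The calls are shallow: 119 cells had exactly 3 UMIs of the 9 genes, 45 had 4, 30 had 5, and 30 had 6 or more, up to 10. Those UMIs came from a single gene in 11 cells, from 2 genes in 72, from 3 in 89 and from 4 or more in the others. The 3-UMI minimum decided membership more than the share did, since 846 of the 1070 cells in the top 10% had fewer than 3. The share needed was 0.0442% of a cell's UMIs; the members nearest to it had 0.0458% and 0.0483%, and 3 cells with 3 UMIs fell outside at 0.0377%, 0.0373% and 0.0334%.

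The 224 cells carried epithelial transcripts. The unit of level is CPM, the UMIs of a gene for every 1000000 UMIs pooled over a set of cells, with exact 95% Poisson intervals in brackets; all intervals here cover counting error only, since cells of 1 sample are not replicates, and no difference has a replicate check or a p-value. Epcam, an epithelial adhesion protein, was at 1121 CPM (1045 to 1201) in the replicating cells against 44.3 in 1129 mesenchymal-rich cells of the same matrix, defined by at least 5 UMIs of the 5 mesenchymal genes and at most 1 of the mitosis genes. Cdh1, which encodes E-cadherin, was at 273 against 14.4 CPM, and the basal markers Krt5 and Trp63 were at 837 against 33.2 and at 162 against 6.44 CPM. Of the mesenchymal markers outside the rule, Col1a1 stood at 2.77 CPM against 321 in mesenchymal-rich cells, and 5 of the 13 listed, including Col1a2 and Pdgfrb, had no UMI in the replicating cells. Summed, these 13 markers gave 614 CPM in the replicating cells and 632 in the rest, nearly all of it from the matrix genes Fn1 and Sparc. Of 10 immune and endothelial markers 7 had no UMI in the replicating cells, and the sum was 11.1 CPM against 9.12 in the rest.

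Replicating cells were somewhat deeper than the rest. Their median was 3136.5 UMIs (1066 to 8198) and 1586.5 genes, against 2741 UMIs and 1407 genes in the rest, and they held 721451 UMIs in all against 29286988. Mitochondrial UMIs made up a median of 2.45% in the replicating cells and 2.87% in the rest. No doublet caller was run; without the 10% deepest eligible cells the same procedure chose 181 cells and gave a median ratio of 2.72 for the replication genes described below, against 2.47. Because of the difference in depth, shares of cells with a UMI are also given with every cell reduced to 1500 randomly kept UMIs (thinned), which left 210 replicating cells and 8959 of the rest and dropped 14 and 1515.

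Outside the 9 rule genes and the 13 genes with a ceiling, 8774 genes reached 10 CPM in either set. Of these, 552 (6.29%) were higher and 267 (3.04%) lower in the replicating cells by the size rule used throughout: a ratio of at least 1.5, at least 10 CPM in the higher set, and intervals that do not overlap. "Higher", "lower" and "passed" refer to this rule below. A gene that reaches 10 CPM only in the set where it is high has to differ, so lists were counted over genes with at least 5 CPM in all eligible cells together. Those cells include the replicating ones, which lessens the problem without removing it. Uhrf1, Mcm2 and Prim1, under 5 CPM in the rest, reached that level only through the replicating cells. Values of listed genes under 5 CPM over all eligible cells are given as a description throughout. Counted at 5 CPM or more, 9874 genes had 437 (4.43%) higher and 267 (2.7%) lower, with a median ratio of 0.97. The replication genes outside the rule formed 6 lists, 91 genes in all. They had 67 members at that level. Of these, 53 were higher, 0 were lower and 14 did not pass. Their median ratio was 2.47. The sum over all 91 genes was 7417 CPM (7220 to 7618) in the replicating cells against 3409 (3388 to 3430) in the rest. Per cell, the replicating cells had a median of 23 UMIs of these 91 genes (4 to 64) and the rest 9 (0 to 61), and the counts overlapped broadly. After thinning the medians were 11.5 and 5 UMIs.

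**Figure D1:**
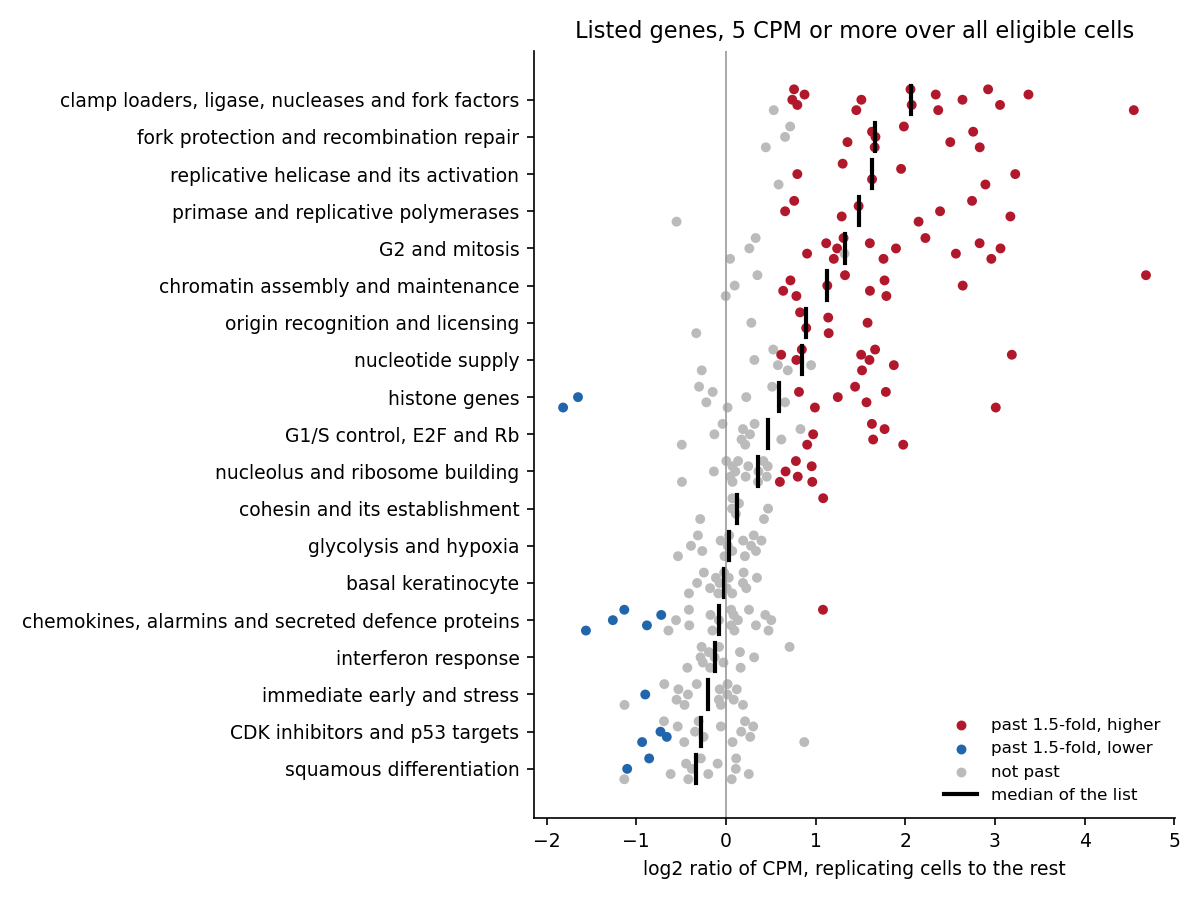
Ratio of CPM in the 224 replicating cells to the 10474 others, as log2 on the x axis, for each listed gene with at least 5 CPM over all eligible cells; points are genes, coloured by whether they passed the 1.5-fold rule, and bars are list medians. The medians of the fork, repair, helicase and polymerase lists lie to the right of 0, the basal keratinocyte list sits around 0 with no gene past the rule, and 2 histone genes lie far to the left.

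Origin licensing genes were in part higher in the replicating cells. The loading factors Cdc6 and Cdt1 lie under 5 CPM over all eligible cells and could pass only through the replicating cells, so their values are a description. Cdc6, the ATPase that loads the Mcm ring (ENSMUSG00000017499, GRCm38 chr11:98907801-98923940, plus strand), gave 20 UMIs in 17 replicating cells and 14 UMIs in 13 of the rest. That is 27.7 CPM (16.9 to 42.8) against 0.478 (0.261 to 0.802), a ratio of 58.0 (27.9 to 124). The counts of Cdc6 are small, and no cell held more than 3 of its UMIs. Its partner Cdt1 was at 52.7 CPM (37.3 to 72.3) against 3.59 (2.93 to 4.34). Of the 7 licensing genes at 5 CPM or more over all eligible cells, 5 were higher: the origin recognition subunits Orc2, Orc5 and Orc6, Mcmbp, which binds Mcm proteins, and Gmnn. Gmnn encodes geminin, the inhibitor of Cdt1, and stood at 159 CPM (132 to 191) against 72.3 (69.2 to 75.4). Orc3, at 37.4 against 30.7 CPM, and Orc4, at 52.7 against 66.2, did not pass. Orc1, the subunit known to cycle, had 4 UMIs in the replicating cells, too few to pass at 5.54 CPM against 0.717.

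The Mcm subunits that the rule did not use were higher as well. Mcm4 stood at 83.2 CPM (63.5 to 107) against 8.88 (7.83 to 10.0), a ratio of 9.37. Mcm2 was at 33.3 CPM against 4.47, and Mcm7 at 87.3 CPM against 28.2, a ratio of 3.10. Mcm2 reached 5 CPM over all eligible cells only through the replicating cells. Of 7 helicase genes at 5 CPM or more, 6 were higher, the others being Dbf4, the activator of the origin-firing kinase, Mtbp, and Topbp1, a platform for origin firing and checkpoint signalling. The GINS subunit Gins4, at 26.3 CPM (15.9 to 41.1) against 17.5 (16.0 to 19.1), did not pass because the intervals overlap. Another 8 genes lay under 5 CPM. Cdc7, the origin-firing kinase, stood at 23.6 against 1.37 CPM, Cdc45 at 12.5 against 1.64, Mcm10 at 15.2 against 0.512 and Ticrr at 11.1 against 0.58. Gins1 and Gins3 were both at 13.9 CPM against 2.56 and 3.52. Donson had 3 UMIs in the replicating cells, and Recql4 had none in either set.

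Genes of all 3 replicative polymerases and of primase were higher. Pola1, the catalytic subunit of the polymerase that starts each strand, gave 133 UMIs and stood at 184 CPM (154 to 218) against 27.5 (25.6 to 29.5). The primase subunits Prim1 and Prim2 were at 44.4 against 4.92 and 27.7 against 5.29 CPM. Pole, the catalytic subunit of the leading-strand polymerase epsilon, was at 38.8 CPM against 1.88, a ratio of 20.7 (12.6 to 33.1). Pole lies under 5 CPM over all eligible cells and could pass only through the replicating cells, so its values are a description. Of 9 genes at 5 CPM or more 8 were higher, with ratios from 1.58 for Pole4 to 9.02 for Prim1. Prim1 reached 5 CPM over all eligible cells only through the replicating cells. Pold4, the small accessory subunit of polymerase delta, was not raised: it stood at 61.0 CPM (44.3 to 81.9) against 89.3 (85.9 to 92.8), a ratio of 0.683 that did not pass the rule. Of the 3 polymerase genes under 5 CPM, Pola2 was at 18 against 4.68 CPM and Pold1 at 11.1 against 1.95, and Pole has been given above.

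Fork genes had the highest list median, 4.19, with 15 of 16 higher. Pclaf, a small protein that binds PCNA (ENSMUSG00000040204), gave 90 UMIs in 57 replicating cells and 156 in 138 of the rest, 125 CPM (100.3 to 153) against 5.33 (4.52 to 6.23). After thinning it was seen in 16.7% of replicating cells (35 of 210, interval 11.9 to 22.4) and in 0.792% of the rest (0.619 to 0.999). Mesenchymal-rich cells, at a median of 3446 UMIs, gave 0.622% (0.251 to 1.28). The intervals of the rest and of the mesenchymal-rich cells overlap; the level of free RNA in the droplets was not measured. Unthinned, the shares were 25.4%, 1.32% and 0.974%. Lig1, which seals Okazaki fragments, was at 63.8 CPM against 6.15, Fen1, the flap nuclease, at 40.2 against 6.45, and Atad5, which unloads PCNA, at 55.4 against 6.66. Tipin, which steadies stalled forks, was at 105 CPM against 20.8. The clamp loader subunits Rfc1 to Rfc5 all passed, at ratios from 1.69 for Rfc1 to 5.16 for Rfc5, and so did the single-strand binding subunits Rpa1, Rpa2 and Rpa3. Rnaseh2c, at 76.2 CPM against 52.7, was the member that did not pass. Under 5 CPM, Timeless stood at 18 against 1.81 CPM, Wdhd1 at 22.2 against 1.54 and Dscc1 at 13.9 against 0.41; Dna2 had 3 UMIs and Chtf18 none in the replicating cells.

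**Figure D2:**
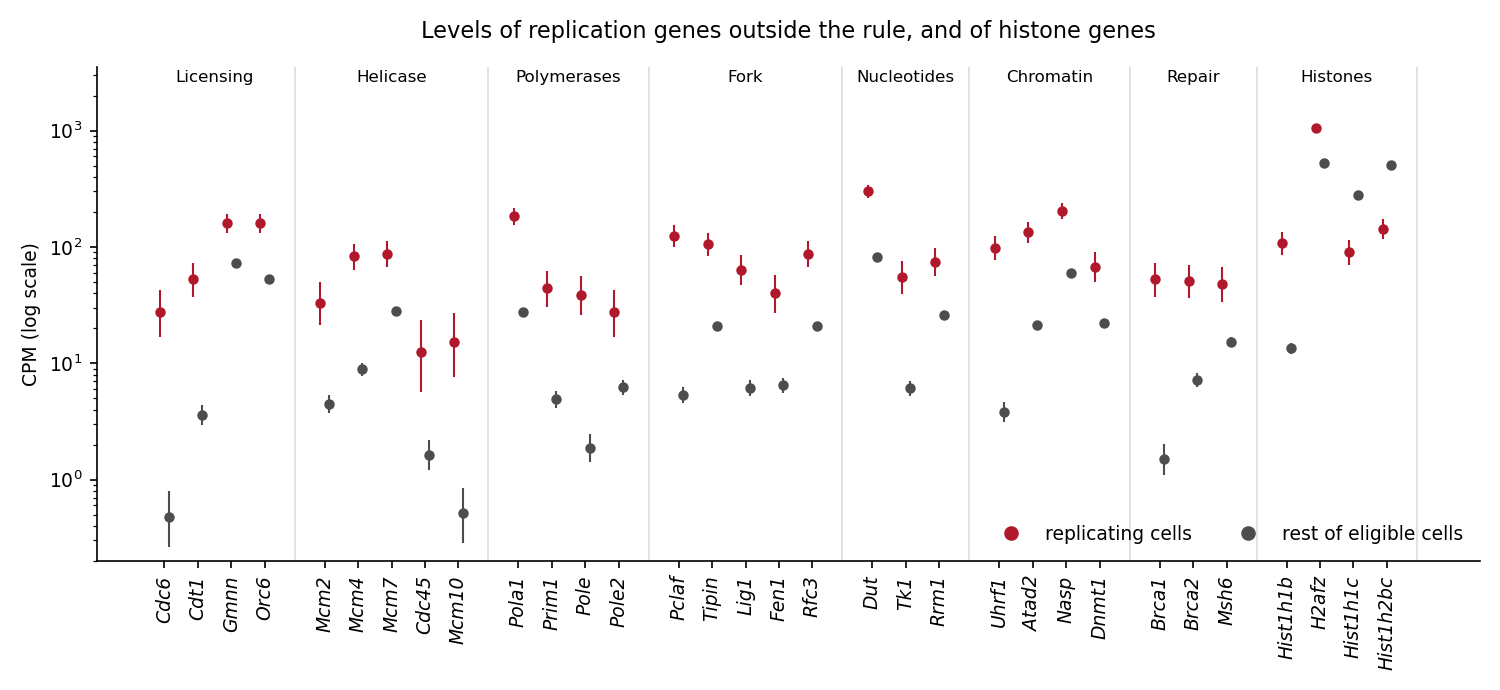
CPM on a log scale for genes of each role in the 224 replicating cells (red) and the 10474 other eligible cells (grey); points are values from summed UMIs and bars exact 95% Poisson intervals. The replication and repair genes drawn are higher in the replicating cells, from 58.0 times for Cdc6 to 2.21 times for Gmnn, whereas Hist1h1c and Hist1h2bc are lower. The 14 replication genes at 5 CPM or more that did not pass are not drawn. Cdc6, Cdt1, Cdc45, Mcm10, Pole and Brca1 lie under 5 CPM over all eligible cells and could pass only through the replicating cells. Uhrf1, Mcm2 and Prim1 reached 5 CPM over all eligible cells only through the replicating cells.

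Of the nucleotide supply genes 9 of 15 were higher, with a median ratio of 1.80. Dut, which removes dUTP, was at 301 CPM (262 to 344) against 82.1 (78.8 to 85.4). The thymidine kinase Tk1 was at 55.4 CPM against 6.08, the ribonucleotide reductase subunit Rrm1 at 74.9 against 26.1, and the dCTP-clearing enzyme Dctpp1 at 125 against 41.1. The purine pathway genes Ppat and Paics passed at ratios of 2.85 and 1.53, Impdh2 at 1.72, and the kinases Dck and Dtymk at 3.17 and 1.80. Cmpk1, Gart, Mthfd1, Nme1, Shmt1 and Umps did not pass, with ratios from 0.83 to 1.93. Cad, under 5 CPM, had 2 UMIs in the replicating cells.

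Of the chromatin genes 10 of 13 were higher, with a median ratio of 2.19. Uhrf1, which reads hemimethylated DNA behind the fork (ENSMUSG00000001228), gave 71 UMIs in 56 replicating cells, 98.4 CPM (76.9 to 124) against 3.82 (3.15 to 4.6). It reached 5 CPM over all eligible cells, at 6.10, only through the replicating cells. It was seen in 17.1% of thinned replicating cells (12.3 to 22.9), 0.502% of the rest (0.367 to 0.672) and 0.356% of mesenchymal-rich cells (0.097 to 0.908), and unthinned in 25%, 1.01% and 1.42%. Its partner, the maintenance methyltransferase Dnmt1, was at 67.9 CPM against 22.3. The histone chaperone Nasp was at 205 CPM against 60.2, the remodeller-like ATPase Atad2 at 134.5 against 21.6, and Ezh2, the H3K27 methyltransferase, at 121 against 48.0. Slbp, which binds the stem-loop of histone mRNAs, was at 83.2 CPM against 38. Hmgb1, Hmgb2, Hmgn2 and Cbx5 also passed. The FACT subunits Ssrp1 and Supt16 had ratios of 1.07 and 1.28, and the chaperone Asf1a had 33.3 CPM in both sets. Its paralog Asf1b, under 5 CPM, was at 20.8 against 1.30 CPM, and the assembly factor subunits Chaf1a and Chaf1b were at 23.6 against 2.29 and 20.8 against 1.37.

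The sequence upstream of these genes was searched for the E2F-type letters TTTCCCGC, TTTCGCGC, TTTGCCGC and TTTGGCGC and for CCAAT, on both strands, in the 250 bases before each RefSeq start site. Of the 91 listed replication genes 77 had a sequence, and 14 of them (18.2%) held an E2F-type match. Among the 45 matched genes past 1.5-fold 9 (20%) held it, and among the 13 matched at 5 CPM or more that did not pass 2 (15.4%) did. Of the genes with the highest ratios named below 3 of 20 matched (15%) held it, and of those with the lowest 2 of 10 (20%). Of 28 matched mitosis genes 1 (3.57%) held it, of the matched genes at 10 CPM or more in either set 4.26%, and of all 27025 genes with a promoter sequence 2.16%. CCAAT, which is short and common, was in 40 of the 77 (51.9%), in 24 of the 28 mitosis genes (85.7%) and in 37.5% of all genes. These shares are descriptions, and a match is not a binding site. The 150 bases before the start site are shown for 4 of the genes that were higher and hold a match, 1 each for licensing, polymerase, origin firing and clamp loading, and for Pclaf, which had a steep difference without such a match. They are RefSeq sequences on GRCm38.p6, the assembly that mm10 names, written 5′ to 3′ on the gene's strand, with E2F-type and CCAAT matches in capitals. The regions are chr11:98908001-98908150 (plus strand) for Cdc6, chrX:93632156-93632305 (minus) for Pola1, chr9:103305177-103305326 (plus) for Topbp1, chr5:151651209-151651358 (minus) for Rfc3 and chr9:65890173-65890322 (plus) for Pclaf. RefSeq start sites need not be those of GENCODE M21, from which gene positions are given here: the Cdc6 window and the E2F-type match of Rfc3 lie inside the GENCODE gene, and the windows of Topbp1 and Pclaf run into it, while that of Pola1 ends at its start.
Cdc6: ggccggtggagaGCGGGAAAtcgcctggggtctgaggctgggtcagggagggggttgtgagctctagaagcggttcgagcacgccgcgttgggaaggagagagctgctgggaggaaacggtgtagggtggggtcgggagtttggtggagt
Pola1: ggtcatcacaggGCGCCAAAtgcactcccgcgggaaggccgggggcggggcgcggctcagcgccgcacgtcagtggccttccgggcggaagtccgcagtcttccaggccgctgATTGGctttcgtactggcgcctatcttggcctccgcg
Topbp1: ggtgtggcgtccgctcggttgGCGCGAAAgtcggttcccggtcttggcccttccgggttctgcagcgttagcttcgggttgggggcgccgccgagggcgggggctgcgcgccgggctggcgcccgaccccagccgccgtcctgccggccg
Rfc3: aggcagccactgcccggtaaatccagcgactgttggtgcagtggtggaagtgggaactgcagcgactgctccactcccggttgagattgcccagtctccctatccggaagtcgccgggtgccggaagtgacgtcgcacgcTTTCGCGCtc
Pclaf: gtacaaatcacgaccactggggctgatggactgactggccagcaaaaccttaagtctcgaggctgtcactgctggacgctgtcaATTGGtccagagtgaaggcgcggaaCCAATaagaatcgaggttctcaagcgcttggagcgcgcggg
The E2F-type match begins 138 bases before the start site in Cdc6 and in Pola1, 129 before it in Topbp1 and 10 before it in Rfc3. Cdc6, Topbp1 and Rfc3 held no CCAAT in this window, Pola1 had 1 and Pclaf had 2.

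Genes of recombination and repair were higher as well. Of 11 at 5 CPM or more, 8 were higher and 0 lower, with a median ratio of 3.16. Brca2 was at 51.3 CPM against 7.20 and Bard1, the partner of Brca1, at 34.6 against 5.12. Msh6, a mismatch repair gene, stood at 48.5 against 15.3 CPM, and Mre11a, Rad18, Usp1 and Zranb3 were among the others that passed, while Atr, H2afx and Rbbp8 did not. A further 15 genes lay under 5 CPM; they could pass only through the replicating cells and are given as values. Brca1 gave 38 UMIs in 32 replicating cells and 44 UMIs in 44 of the rest, 52.7 CPM (37.3 to 72.3) against 1.5 (1.09 to 2.02). Rad51ap1, a recombination factor, was at 23.6 CPM against 0.683, the nuclease Exo1 at 22.2 against 0.888 and the checkpoint kinase Chek1 at 27.7 against 1.67. Ung, which removes uracil from DNA, was at 36.0 CPM (23.5 to 52.8) against 3.41 (2.78 to 4.15). Blm, Fanca and Fancd2 were also past 1.5-fold, and 6 had 7 or fewer UMIs in the replicating cells and did not pass. Of 8 cohesin genes 1 passed, Pds5b at 116 CPM against 54.9, beside 4.43% higher of all 9874 genes. The list median was 1.09. Esco2, which acetylates cohesin during replication, lies under 5 CPM and stood at 31.9 against 1.16 CPM.

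Histone genes split in direction. Of 16 at 5 CPM or more, 7 were higher and 2 lower, beside 4.43% and 2.7% of all 9874 genes. Most replication-linked histone mRNAs end in a stem-loop without a poly(A) tail, whereas the 3′ kit primes on poly(A) tails; its part in these levels was not tested. Many histone genes are near-copies of each other, and the sources used here do not say how reads matching several genes were counted, so the values of single histone genes are uncertain. The linker histone Hist1h1b stood at 108 CPM (85.5 to 135) against 13.4 (12.1 to 14.8), and the variant H2afz at 1055 (981 to 1132) against 529.9 (521.6 to 538). Hist1h1a, Hist1h1d, Hist1h1e, Hist1h2ae and Hist1h2ap also passed upward, at ratios from 1.76 to 3.44. In contrast Hist1h2bc, in the histone cluster of chromosome 13 (chr13:23684199-23692908, plus strand), was lower, at 143 CPM (117 to 173) against 502 (494 to 511), a ratio of 0.284. Hist1h1c, in the same cluster (chr13:23738808-23740367, plus strand), was at 90.1 CPM (69.5 to 115) against 283 (276 to 289). Hist1h2bc was detected in 14.3% of thinned replicating cells (9.85 to 19.8) against 44.9% of the rest (43.9 to 46.0) and 43.2% of mesenchymal-rich cells. Hist1h1c was detected in 12.9% (8.65 to 18.2), 30.6% and 22.5%. Unthinned, the shares in replicating cells and the rest were 23.2% and 59.7% for Hist1h2bc and 20.1% and 43.7% for Hist1h1c. Their neighbour Hist1h2ac, outside the list but among the lowest genes, was at 13.9 CPM against 42.8. The replacement histones H3f3a and H3f3b had ratios of 1.01 and 0.903, and 5 other genes did not pass. Of the 6 histone genes under 5 CPM, Hist2h2ac stood at 11.1 against 1.78 CPM, and the others had 3 or fewer UMIs.

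Of 16 regulators of entry into S phase 6 were higher, beside 4.43% of all 9874 genes, with a median ratio of 1.39. Ccnd1, the cyclin D that opposes Rb in G1, was at 417 CPM (371 to 467) against 212 (207 to 218). Ccne1, a partner of Cdk2, was at 24.9 CPM against 7.99, Cdk2 itself at 22.2 against 7.17, E2f1 at 27.7 against 8.13 and its partner Tfdp1 at 74.9 against 39.9. Rbl1, the Rb relative p107, was at 31.9 CPM against 8.09. Rb1, at 26.3 against 22.7, Rbl2, at 19.4 against 27.3, Cdk4, Cdk6, Ccnd2, Ccnd3 and Myc did not pass, nor did Cdc25a, E2f3 and E2f4. Under 5 CPM, Ccne2 was at 23.6 against 3.11 CPM, the repressor E2f8 at 20.8 against 1.16 and Fbxo5 at 20.8 against 2.36, and E2f2, E2f7 and Mybl2 had 6 or fewer UMIs. CDK inhibitors and p53 target genes gave 0 higher and 3 lower of 16, beside 4.43% and 2.7% of all genes. Their median ratio was 0.83. Cdkn1a, which encodes p21, was at 52.7 CPM (37.3 to 72.3) against 87.3 (84.0 to 90.8), Cdkn2b, which encodes p15, at 139 against 219, and Trp53inp1 at 18 against 34.4.

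The engineered genes still gave UMIs; a 3′ count can do so where a deletion or small edit leaves the end of the transcript, so these values do not check the alleles. Trp53 stood at 62.4 CPM (45.5 to 83.5) in replicating cells and 51.7 (49.1 to 54.3) in the rest. Cdkn2a was at 431 CPM (384 to 482) against 594.5 (586 to 603), a ratio of 0.725 that is short of 1.5-fold. Notch1, which was not targeted in PC, was at 13.9 CPM (6.65 to 25.5) against 25.2 (23.4 to 27.1). None of the 9 genes of the engineered and Notch list at 5 CPM or more passed the rule, and Hey1, under it, had no UMI in the replicating cells.

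The choice of cells capped 8 genes of G2 and mitosis, and others of that group were higher. Of 17 outside that cap at 5 CPM or more, 13 were higher and 0 lower, with a median ratio of 2.5. The proliferation marker Mki67 was at 38.8 CPM (25.8 to 56.1) against 6.56 (5.66 to 7.55), the condensin subunit Smc2 at 116 against 13.9 and the microtubule regulator Stmn1 at 331 against 109. Cyclin B2, Cdca3, Pttg1 and Tubb4b did not pass. The capped genes themselves gave 1 UMI in 98 of the 224 cells (43.8%) and 11.1% of the rest, and none in the other 126. Of the 18 genes under 5 CPM, the mitotic kinases Aurka, Aurkb and Plk1 had 3, 7 and 2 UMIs and Ccnb1 7, none past the rule. Bub1, Cenpe, Ckap2l, Hmmr, Kif11, Ncapd2, Ncapg, Pbk and Racgap1 passed, and the other 5 had 6 or fewer UMIs. Genes under 5 CPM could pass only through the replicating cells, so those that passed are given as a description.

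The 25 genes with the highest ratio among those at 20 CPM or more were mostly genes of replication, repair and chromosome segregation, with at least 15 UMIs each in the replicating cells. They had to be high in these cells to be ranked, and are given as a description. Besides Cdc6, Brca1, Rad51ap1, Esco2, Uhrf1, Exo1, Pclaf, Pole, E2f8, Cdc7, Chek1, Asf1b, Chaf1b, Cdt1 and Wdhd1, they included Kntc1 and Sgo1, which guard chromosome segregation, the centromere proteins Cenpk and Cenph, and the condensin subunit Ncapg2. Also among them were Fignl1, a recombination factor, Neil3, a glycosylase acting on crosslinked DNA, the kinase Melk and Shcbp1. Ncapg2 was at 63.8 CPM against 4.20 and Cenpk at 62.4 against 4.44.

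The 15 genes with the lowest ratio, from 0.185 to 0.364, were of mixed kinds. Besides the 3 histone genes they comprised Ltf, which encodes lactoferrin, the DNA damage sensors Xpc and Parp3, the metalloprotease Adam28, the GABA receptor subunit Gabrp, the deubiquitinase Usp19, Spsb1, Srgap3, Tcp11l2, Zfp467, AW549877 and AW112010. Gabrp was at 24.9 CPM (14.8 to 39.4) against 86.9 (83.5 to 90.3) and Xpc at 11.1 (4.79 to 21.8) against 31.6 (29.6 to 33.7). Adam28 had 3 UMIs in the replicating cells, 4.16 CPM against 22.5, and its 659 UMIs in the rest came from 386 cells. Low counts limit several of these: Parp3, Tcp11l2 and Zfp467 had 5 UMIs each, and 4 of the 8 UMIs of AW112010 came from a single cell.

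The summed level of the other replication genes was ordered by the number of rule UMIs in a cell, on both sides of the boundary. Cells with 0, 1 and 2 rule UMIs numbered 8108, 1954 and 409, and the members were taken as the 119 with 3, the 75 with 4 or 5 and the 30 with 6 or more. The summed level of the 91 replication genes was 3275, 3668 and 4339 CPM in the rest and 6256, 8278 and 9710 CPM in the members, in that order, with intervals that did not overlap between any neighbours. Depth differs between the steps as well: the median was 2638, 3010 and 3383 UMIs, then 3217, 2954 and 3395. Thinned medians of these genes were 5, 5 and 6 UMIs a cell, then 10, 13 and 14.5. Pclaf stood at 3.85, 7.92 and 17.1 CPM, then at 73.3, 133 and 293, and Dut at 74.7, 94.2 and 142 CPM, then at 199, 398 and 454. Hist1h2bc ran the other way, at 529, 443 and 346 CPM, then at 188, 111 and 47.3, the last from 5 UMIs. Within the members single genes were not all ordered. Intervals overlapped between both pairs of neighbouring steps for Uhrf1, at 68.0, 137 and 123 CPM, and for Hist1h2bc, between the lower pair for Pclaf and between the upper pair for Dut. Mcm4 followed no order, at 70.6, 107 and 75.6 CPM, the last from 8 UMIs. Ly6d was at 1318, 1061 and 953 CPM in the rest, then at 615, 630 and 359 (254 to 493) in the members.

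**Figure D3:**
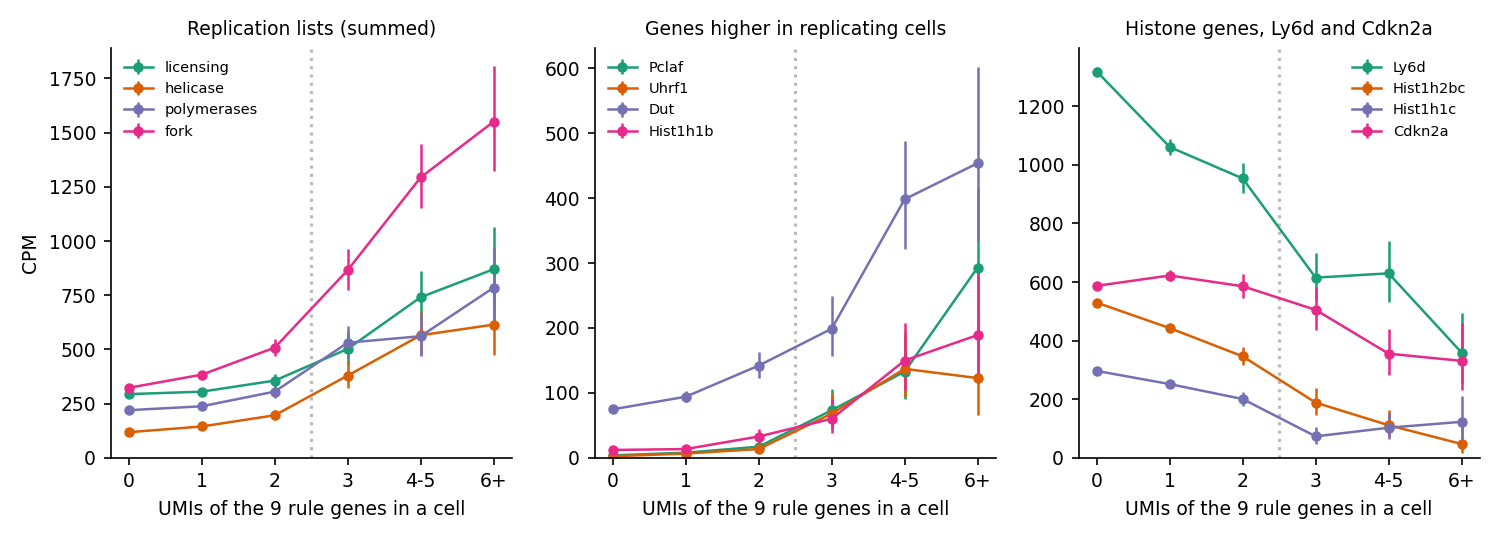
CPM by the number of UMIs of the 9 rule genes in a cell; the dotted line separates the rest (0 to 2) from the members (3, 4 to 5, 6 or more), and bars are exact 95% Poisson intervals. The fork list climbs from 323 to 1551 CPM and Pclaf from 3.85 to 293, while Hist1h2bc declines from 529 to 47.3; the 3 cells of the rest with 3 rule UMIs are not drawn.

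Within the members, the kind of rule gene that was detected separated no other replication gene. The share of rule UMIs from Mcm3, Mcm5, Mcm6 and Gins2 had a median of 25%; 105 cells above it were compared with 119 at or below it. In the MCM-rich cells 20 genes (0.22%) of 9107 at 10 CPM or more in either group were higher and 19 (0.209%) lower. Of the 9874 genes at 5 CPM or more over all eligible cells these were 0.203% and 0.192%, and 0 of the 67 replication genes passed in either direction. At this number of cells only large differences could pass. Single cells supplied much of the UMIs of some genes: 61 of the 76 Nts UMIs and 44 of the 129 Tslp UMIs in MCM-poor cells came from 1 cell each, and 9 of the 11 Tagln UMIs in MCM-rich cells. The secreted protein Spp1 was at 128 CPM (92.6 to 172) in the MCM-rich and 363 (305 to 429) in the MCM-poor cells, and the synuclein Sncg at 214 (168 to 270) against 54.5 (33.7 to 83.3). Cells were also chosen with part of the rule genes; their genes are shared with the rule, so an overlap with the 224 carries no separate information. The same procedure with Pcna, Rrm2, Tyms, Hells and Clspn alone chose 134 cells. In those the unused genes Mcm3, Mcm5, Mcm6 and Gins2 stood at 52.3, 22.7, 65.9 and 70.4 CPM against 3.86, 1.39, 8.59 and 8.83 in the other eligible cells, ratios from 7.67 to 16.4. With Mcm3, Mcm5, Mcm6 and Gins2 alone 20 cells were chosen. Hells stood there at 134 CPM (64.1 to 246) against 24.4 (22.7 to 26.2), Rrm2 at 80.2 (29.4 to 175) against 6.85, Tyms at 120 (55.0 to 228) against 18.5 and Pcna at 134 (64.1 to 246) against 44.7. Clspn had 4 UMIs, 53.5 CPM against 1.7.

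The cap on mitosis genes leaves out most epithelial cells that meet the replication limits. Without it, 1120 of the 13100 epithelial cells (8.55%) met the same replication limits, and 896 of them (80%) had more than 1 UMI of the 8 mitosis genes, among which Cdk1, Top2a and Ccna2 are known to be made from S phase on. This comparison was added after the data had been seen. The 896 capped-out cells were deeper, with a median of 4088.5 UMIs, and their summed level of the 91 replication genes was higher, 11127 CPM (11020 to 11235) against 7417 in the 224. Of the 67 replication genes at 5 CPM or more, 0 were higher and 18 lower in the 224, beside 1.72% and 1.76% of all 9874 genes; by the 10 CPM minimum the shares were 2.03% and 3.05%. Pclaf was at 125 against 566 CPM, Tk1 at 55.4 against 141, Dut at 301 against 542 and Rrm1, Fen1, Orc6 and 3 clamp loader genes were among the others that were lower. Uhrf1, at 98.4 against 110, Cdc6, at 27.7 against 25.3, Mcm4, at 83.2 against 69.3, and Pola1, at 184 against 158 CPM, did not pass in either direction. Of 16 histone genes 12 were lower, Hist1h1b at 108 against 351 CPM. Higher in the 224 were, among the listed genes, Ung at 36.0 (23.5 to 52.8) against 16.9 (12.9 to 21.6) CPM and the growth regulator Myc at 69.3 (51.4 to 91.4) against 41.1 (34.8 to 48.1). Ccnd2, the D cyclin, was at 607 (552 to 667) against 381 CPM (361 to 401).

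Mitotic epithelial cells, the 1310 epithelial cells with the largest share of the 8 mitosis genes and at least 3 such UMIs, differed in both directions. Of these, 476 also met the replication limits, and none is among the 224. Of 8766 genes at 10 CPM or more in either set, 195 (2.22%) were higher and 332 (3.79%) lower in the 224 replicating cells, and of the 9874 genes at 5 CPM or more 1.85% and 2.33%. With thinned cells 81 genes were higher in place of 195. The mitotic cells were chosen for UMIs of the 8 mitosis genes, which are capped in the 224. Lower levels of other mitosis genes were therefore built into the choice and are a description. Of 17 such genes at 5 CPM or more over all eligible cells 16 were lower, with a median ratio of 0.249. Mki67, among them, stood at 38.8 against 317 CPM. Plk1, at 2.77 CPM (0.336 to 10.0) against 106 (97.4 to 116), and Ccnb1, at 9.70 against 130, lie under 5 CPM and are not among the 17. Of the 16 histone genes 14 were lower, H3f3a and H3f3b being the exceptions. Replication genes went both ways, 5 higher and 12 lower of 67. Higher were Mcm4 at 83.2 against 35.3 CPM, Uhrf1 at 98.4 against 59.8, Pola1, Rfc3 and Ppat, and lower were Pclaf, Tk1, Hmgb2 and 9 others. The 10 genes with the highest ratios were Sprr2d, Ung, Cdca7, Ifit3, Cdt1, Ttc28, Fam20c, Tslp, Tec and Bivm. All but Tslp reached the ranking minimum of 20 CPM only in the 224. They had to be high there to be ranked, so the ranking is a description. Ung stood at 36.0 against 3.65 CPM, a ratio of 9.87 (5.21 to 19.1), Cdca7, a Myc and E2F target, at 22.2 against 5.88, and Cdt1 at 52.7 against 15. The others ran from 3.42 for Ttc28 to 3.06 for Bivm, besides Sprr2d and Ifit3. E2f1 and Cdc6, listed genes below the tenth, were both at 27.7 against 9.13. Ccnd1, Ccnd2, Myc and Msh6 were also higher. Ccne1, at 24.9 (14.8 to 39.4) against 18.1 (14.5 to 22.2), did not pass. Single cells weigh in some of the 10 highest. Of the 64 Sprr2d UMIs 41 came from 1 cell, and of the 15 Ifit3 UMIs 9 did. The cytokine gene Tslp had 44 of its 151 UMIs in 1 cell. Among the mitotic cells, 1 cell held 5 of the 29 Ifit3 UMIs and 1 held 49 of the 319 Tslp UMIs. Without the top cell of both sets, the ratio fell from 3.53 to 1.72 for Ifit3 and from 3.23 to 2.71 for Tslp. Both comparisons share the same 224 cells, so they are not independent.

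**Figure D4:**
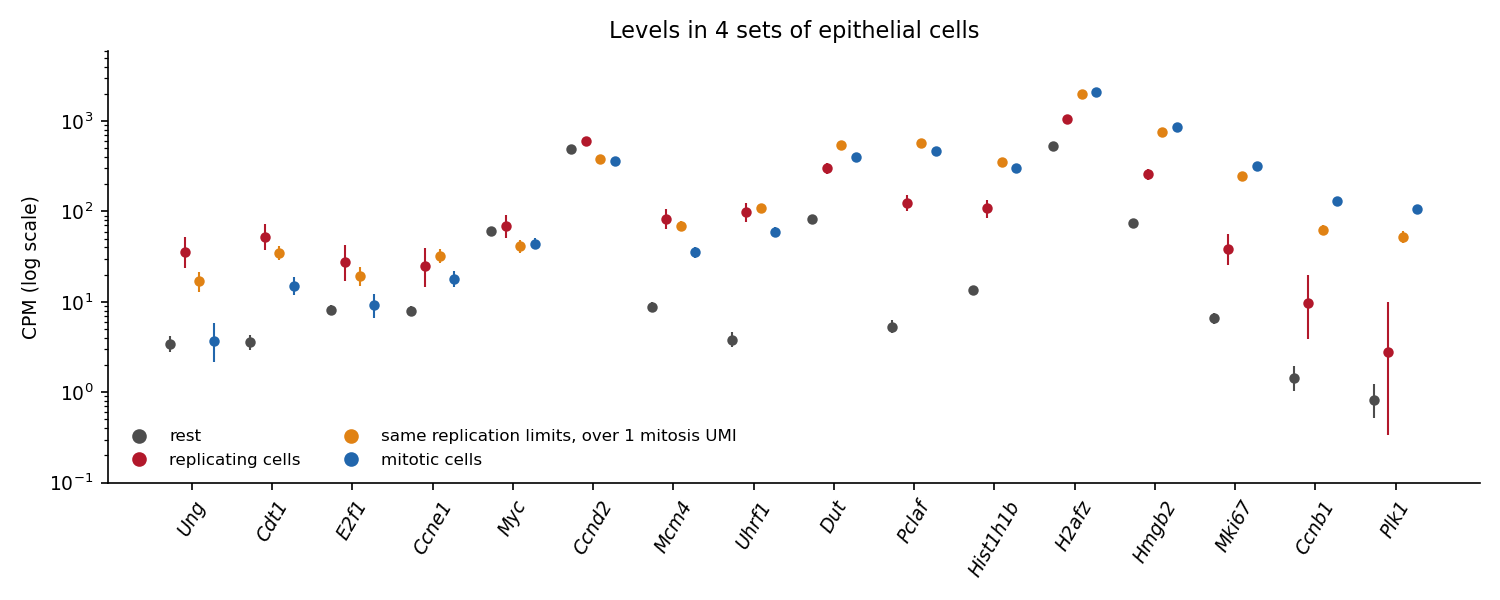
CPM on a log scale for 16 genes in 4 sets of epithelial cells: the 10474 others (grey), the 224 replicating cells (red), the 896 cells past the same replication limits with more than 1 mitosis UMI (orange) and the 1310 mitotic cells (blue), with exact 95% Poisson intervals. Ung is highest in the 224 cells, Pclaf, Hist1h1b, Mki67, Ccnb1 and Plk1 in the sets with mitosis UMIs. Higher levels of mitosis genes in those sets follow from how the cells were chosen. The orange and blue sets share 476 cells.

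The basal keratinocyte genes showed no difference that passed. Of 15 basal keratinocyte genes 0 were higher and 0 lower, beside 4.43% and 2.7% of all 9874 genes. The list median was 0.99. The basal keratins Krt5 and Krt14 stood at 837 CPM (772 to 907) against 733.5 and 1580 (1490 to 1675) against 1242 CPM, and Trp63, the master regulator of basal cells, at 162 against 164. The hemidesmosome genes Col17a1 and Itgb4 had ratios of 1.01 and 0.953. Krt15 had no UMI in the replicating cells, where 3 UMIs would be 4.16 CPM, and 5.53 CPM in the rest. Squamous differentiation genes gave 2 lower and 0 higher of 14, with a median ratio of 0.80: Ly6d, a surface protein of committed keratinocytes, was at 582 CPM (528 to 641) against 1248 (1235 to 1261), and the cornified envelope precursor Sprr1a at 123 (99.1 to 152) against 223 (218 to 229). Ly6d was seen in 24.8% of thinned replicating cells (19.1 to 31.2), 39.3% of the rest and 1.78% of mesenchymal-rich cells, and in 31.7%, 44.0% and 3.90% unthinned. Krt6a, Krt10, Klf4, Ivl and 8 others did not pass, and 12 members lay under 5 CPM with 4 or fewer UMIs each. Among simple epithelial genes 1 of 6 was lower, Krt19 at 58.2 against 103 CPM.

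Of 23 chemokine, alarmin and secreted defence genes, 5 were lower and 1 higher, beside 2.7% lower and 4.43% higher of all 9874 genes. The 1 higher gene is near the share of all genes. The siderophore-binding protein Lcn2 was at 159 CPM (132 to 191) against 382 (375 to 389), and Ltf at 26.3 (15.9 to 41.1) against 77.7 (74.5 to 80.9). The chemokine Ccl7 and the interleukin-1 family genes Il33 and Il1rn were lower too, at 33.3 against 72.9, 43.0 against 70.8 and 29.1 against 53.6 CPM, and Cxcl10 was higher at 34.6 against 16.4. The abundant chemokines Cxcl5 and Ppbp had ratios of 1.06 and 1.42 and Wfdc18 0.947, none past the rule.

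Cells were also sorted by state. For each of 10 short gene lists, chosen with earlier results of these data known, the 1070 eligible cells with the highest share of the list's UMIs were set against the other 9628. Replicating cells were 0.748% (8 of 1070, interval 0.323 to 1.47) of the cells richest in Ltf and Lcn2 and 2.24% (1.96 to 2.56) of the others. They were 0.841% (0.385 to 1.59) of the cells richest in Ly6d and 2.23% (1.95 to 2.55) of the others. In the other 8 states the intervals overlapped, from 1.21% in squamous-rich cells to 2.90% in cells rich in the proliferins Prl2c2 and Prl2c3. Because a fixed number of UMIs is easier to reach in a deep cell, a second count took cells thinned to 1500 UMIs and a limit of 2 or more rule UMIs, so that both depth and limit differ from the rule. Its shares were 1.05% (0.505 to 1.93) against 2.53% for Ltf and Lcn2, and 0.95% (0.435 to 1.80) against 2.54% for Ly6d. In that count the intervals were also apart for the cells richest in Y chromosome transcripts, at 0.871% (0.351 to 1.79) against 2.52% (2.20 to 2.88), where the rule gave 1.5% against 2.16% with overlapping intervals. Which of the 2 changes moved this value was not tested. The states share cells and 1 library, so these shares are not independent of each other.

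**Figure D5:**
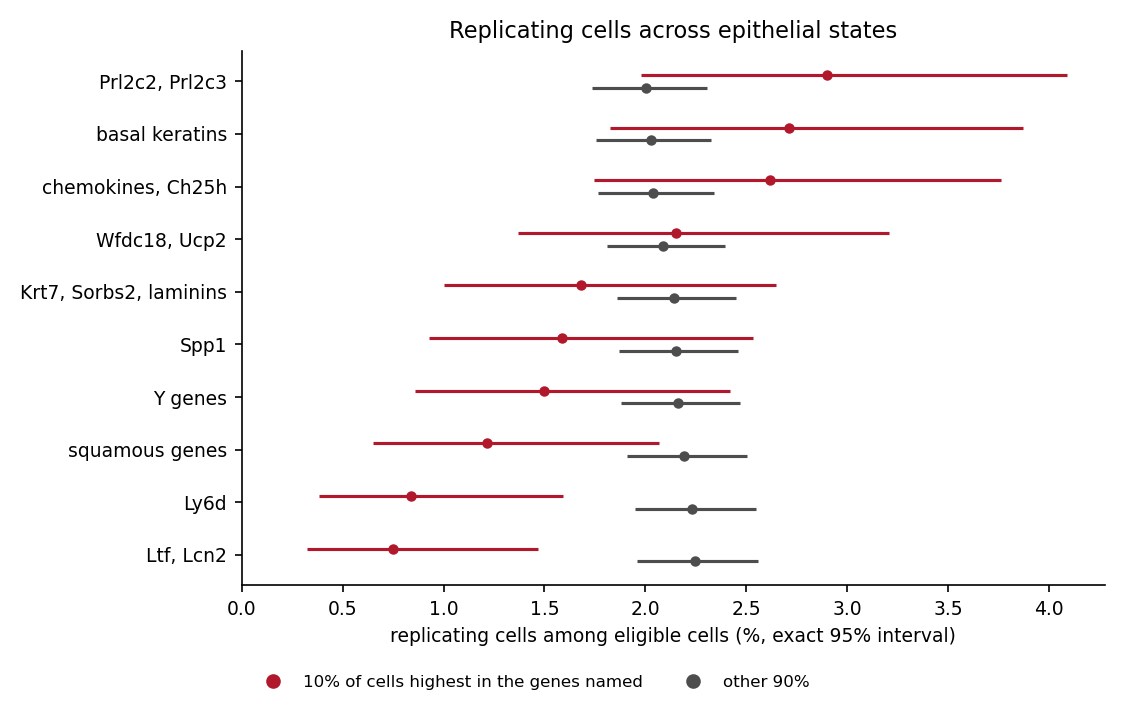
Share of replicating cells, in percent on the x axis with exact 95% binomial intervals, among the 1070 eligible cells richest in each gene list (red) and the other 9628 (grey). Intervals are apart for Ltf and Lcn2 (0.748% against 2.24%) and for Ly6d (0.841% against 2.23%), and overlap for the other 8 lists.

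Some mesenchymal-rich cells met the replication limits as well. Of the 1129 mesenchymal-rich cells 13 (1.15%, 0.614 to 1.96) passed the same replication limits. In these 13 cells, 54494 UMIs in all, 6 of the 67 replication genes were higher than in the other 1116, among them Pclaf, at 73.4 CPM (20 to 188) against 2.51 (1.2 to 4.62), and Lig1. Few epithelial and mesenchymal genes passed beside them. Of 15 basal keratinocyte genes 2 were higher and 0 lower. None of 4 pan-epithelial genes and none of 5 mesenchymal markers outside the rule passed. The keratins Krt5 and Krt17 were higher in the 13 cells, at 110 against 32.1 and 495 against 239 CPM, as was Wfdc18, at 716 against 301. Epcam, at 110 (40.4 to 239.7) against 43.4 CPM (37.2 to 50.4), and Krt14, at 275 against 177, did not pass. Of the mesenchymal genes that chose these cells Grem1 was lower, at 183.5 against 499 CPM, and Vim, at 1707 against 1296, did not pass. Whether some of these 13 barcodes hold an epithelial and a mesenchymal cell was not tested. Of all 9874 genes 1.28% were higher and 0.527% lower, and of 9232 at 10 CPM or more in either set 1.57% and 0.585%. The other 61 did not pass; the 4 UMIs of Pclaf show how little 13 cells can resolve.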

How the data were processed

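RNA of single cells was captured with a 10x Genomics 3′ kit, and the deposited matrix holds UMI counts per gene and barcode, made with Cell Ranger 8.0.1 per the file headers. The genome build mm10 and Scanpy 1.8.2 are named in the submitters' processing notes. The labels list 3 libraries of the sample (gene expression, barcodes and scars), and the header names none of them, so all barcodes count as 1 sample, with no comparison between samples, no test and no p-value. It has 18116 barcodes, each with at least 500 UMIs, 32285 mouse gene IDs and the sequences GFP and Scar; 32158 IDs were found in GENCODE M21 (GRCm38), from which positions were taken. Columns of other samples numbered 0.

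UMIs were summed over each set of cells and given as CPM with exact 95% Poisson intervals; shares have exact Clopper-Pearson intervals. Thinning to 1500 UMIs used seed 1. A gene with under 3 UMIs in a set was set to 3 UMIs for its ratio. Named genes were the 25 highest and 15 lowest ratios past 1.5-fold at 20 CPM or more in the higher set, the 10 highest and 10 lowest of the other comparisons, Trp53, Cdkn2a, Notch1, GFP and Scar, and members of the 34 gene lists. The members and lists were chosen with earlier results of these data known. The comparison with the 896 cells was added after the data had been seen. Promoters are from a RefSeq table, matched by Ensembl gene ID through RefSeq gene IDs, and by symbol where that gave no entry. The scripts were tested on simulated data. Versions were Python 3.11.15, numpy 2.4.6, scipy 1.17.1 and pandas 2.3.3. Settings varied were the depth, mitochondrial, share and mitosis limits, the deepest cells, thinning, the totals, weighting by cell, the rule genes, the minimum level and the fold. A few members of the lists are counted in the totals and not reported here by name.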

Additional observations from a re-analysis of the deposited data

Results flagged for a closer look

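The matrix counts 2 introduced sequences, GFP and Scar, outside the mouse genes compared above. GFP was detected in 100% of the replicating cells (224 of 224, exact 95% interval 98.4 to 100) and in 99.99% of the rest. Scar was detected in 99.5536% of the replicating cells (223 of 224, 97.5 to 99.99) and in 99.95% of the rest (10469 of 10474). No control sample without the sequences was analysed here, and the level of free RNA was not measured. The replicating cells had a median of 32 GFP and 29 Scar UMIs a cell, against 28 and 25 in the rest.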

How the results depend on the processing

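The 14 alternative settings kept the direction of every count and of the replication gene median, 2.47, which ranged from 2.10 to 3.51. Requiring 0 mitosis UMIs left 126 cells. Choosing by Pcna, Rrm2, Tyms, Hells and Clspn left 134, and by Mcm3, Mcm5, Mcm6 and Gins2 20; in those 20 cells 357 genes were higher and 131 lower, with a replication median of 3.51. With a mean of per-cell shares 402 genes were lower in place of 267. A limit of 2-fold left 353 higher and 123 lower. Thinning cut the genes higher than in mitotic cells from 195 to 81, with fewer UMIs behind each. Gene values were available for 11 of the alternatives. Of 420 values for the 40 named genes 399 kept their call and 21 lost it, 7 of them with 0 mitosis UMIs and 7 after thinning. Some named genes, among them Cdc6, Esco2, Exo1, Parp3 and Xpc, had no ratio with Mcm3, Mcm5, Mcm6 and Gins2 alone and are not counted there. The genes lost with 0 mitosis UMIs were Neil3, Asf1b, Wdhd1, Parp3, AW549877, Tcp11l2 and Spsb1. Depth limits most steps, since 119 of the 224 cells were chosen on 3 UMIs. No paired analysis was possible because the libraries carry the same replicate number of 1 sample and no groups of samples were compared.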

Other observations

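Genes that build ribosomes were in part higher in the replicating cells. Of 21 at 5 CPM or more 6 were higher and 0 lower, with a median ratio of 1.28, beside 4.43% higher of all 9874 genes. They were the box C/D snoRNP proteins Fbl, at 119 CPM (95.3 to 147) against 61.1 (58.3 to 64.0), Nop56, at 87.3 against 45.0, and Nop58, at 107 against 61.2, the box H/ACA proteins Dkc1, at 62.4 against 36.3, and Nhp2, at 126 against 83.1, and the assembly factor Rrs1, at 49.9 against 31.4. The abundant nucleolar proteins Npm1 and Ncl had ratios of 1.29 and 1.34 and did not pass. Polr1b, under 5 CPM, had 4 UMIs.

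Few of the listed stress, interferon and glycolysis genes passed, beside 4.43% higher and 2.7% lower of all 9874 genes. Of 16 immediate early and stress genes 1 was lower, Ddit4, an inhibitor of mTORC1, at 85.9 CPM (65.9 to 110) against 160 (156 to 165), and 0 were higher. Jun was at 233 CPM (199 to 271) against 336 and Junb at 245 against 338, ratios of 0.693 and 0.727 that did not pass. None of 13 interferon genes and none of 15 glycolysis and hypoxia genes passed, with median ratios of 0.92 and 1.03; Gapdh, at 1417 against 1122 CPM, and Ldha, at 1084 against 874, had ratios of 1.26 and 1.24. Of 4 Y chromosome genes Ddx3y was lower, at 26.3 CPM (15.9 to 41.1) against 45.2 (42.8 to 47.7), and Eif2s3y, Kdm5d and Uty had ratios from 0.683 to 0.928.

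None of the 9 Notch pathway and engineered genes at 5 CPM or more passed, beside 4.43% higher and 2.7% lower of all 9874 genes. Notch2 was at 27.7 CPM (16.9 to 42.8) against 41.7 (39.4 to 44.1), and the target gene Hes1 at 262 (226 to 302) against 359 (352 to 365). The ligand Jag1 was at 199.6 CPM against 236 and Jag2 at 41.6 against 32.4.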
